A study of Mus musculus with 30 samples.

Results

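The thioredoxin and peroxiredoxin system is represented here by 10 of the 29861 genes in the deposited table: Txn1, Txnrd1, Txn2, Txnrd2, Srxn1, Prdx1, Prdx2, Prdx3, Prdx6 and Txnip. They were picked by symbol, through the table's Ensembl identifiers and the GENCODE M21 annotation of GRCm38. That step used no measured value, but the list itself was chosen with earlier results of these data known. Each symbol matched 1 row. RNA was sequenced from CCG-HTA-1 cells, a primary line of tail fibroblasts from UMHet3 mice, which are a genetically mixed stock. The cells were at passage 4, in high-glucose medium without pyruvate and at ambient oxygen, and RNA was taken 48 hours after a compound or the solvent DMSO was added. The labels give no dose, so none is stated for any compound. Each of 8 compounds had 3 libraries and DMSO had 6, which makes 30. Antimycin A and Dihydrorotenone block the mitochondrial respiratory chain at different complexes. Diphenyleneiodonium Cl inhibits flavin-containing enzymes, Clofilium tosylate blocks potassium channels and Podofilox binds tubulin. Cardamonin is a plant chalcone, BerberineA is named as in the labels, and AEG 3482 is a code name. All groups share the cell line, its genetic background and the culture conditions. The labels give an age of 5 to 8 weeks for the donor mice and 8 to 11 weeks for Dihydrorotenone replicate 1. The replicates are libraries of 1 line and nothing says that they came from separate animals, so p-values measure only the spread between these libraries, which may be technical.

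Thioredoxin is a small protein that reduces disulfides in other proteins, and thioredoxin reductase, a selenoprotein, recharges it with electrons from NADPH. Peroxiredoxins break down hydrogen peroxide and are recharged mostly by thioredoxin, and a peroxiredoxin that has been over-oxidised is repaired by sulfiredoxin. The cytosol and the mitochondria hold separate sets of these enzymes, and Txnip, an arrestin-like protein, binds reduced thioredoxin and limits it. Several genes of the cytosolic set are textbook targets of the transcription factor NRF2, which binds the antioxidant response element.

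Because several of these genes moved together, their promoters were searched for that element. The RefSeq promoter table for GRCm38.p6 held 11 windows for 9 of the 10 genes and had no entry for Prdx6. On either strand, the letters TGACNNNGC, the commonly given core of the element, occurred within 250 bases before the start in 10.2% of 32851 promoter windows of the table. They occurred in windows of 2 of the genes, Txnrd1 and Prdx1. The variant TGAGNNNGC was added after the Srxn1 sequence had been seen. It occurred in 14.4% of all windows and in those of 2 of the genes, Srxn1 and Txn2. Either form was found in 23.0% of all windows and in 4 of the 9 genes with windows. Counted by gene, 11.5% of the 27025 genes of the table had the first form and 16.3% the variant. The match in Srxn1 prompted the variant, so the counts with the variant cannot be set against these shares. The letters CACGTG, a perfect E-box, occurred in 6.02% of all windows and in none of the 11 windows of these genes. Imperfect forms of the E-box were not searched for, so nothing is said about a glucose-response site at Txnip. A match is a description of the letters and was not tested for binding. The Srxn1 and Prdx1 windows are shown as the promoters of 2 genes with large rises and with matches, and Txn1 as a gene that also rose and whose window held no match. They run 5′ to 3′ on the gene's strand, with matches in capitals, and stop before the first annotated exon base. For Txnrd1 only the match and 10 bases on each side are shown. Srxn1 is at chr2:152105274-152105515 (+), Prdx1 at chr4:116685349-116685543 (+), Txn1 at chr4:57956412-57956661 (-) and the Txnrd1 site at chr10:82859104-82859132 (+).
Srxn1: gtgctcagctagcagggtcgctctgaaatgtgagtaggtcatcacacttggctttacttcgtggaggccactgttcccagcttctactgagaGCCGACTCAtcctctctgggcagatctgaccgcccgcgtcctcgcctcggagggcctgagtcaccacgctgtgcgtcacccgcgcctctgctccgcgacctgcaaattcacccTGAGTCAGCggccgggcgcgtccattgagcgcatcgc
Prdx1: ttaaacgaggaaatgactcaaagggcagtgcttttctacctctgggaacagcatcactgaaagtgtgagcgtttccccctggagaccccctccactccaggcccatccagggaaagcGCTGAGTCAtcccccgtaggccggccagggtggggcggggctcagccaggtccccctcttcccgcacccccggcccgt
Txn1: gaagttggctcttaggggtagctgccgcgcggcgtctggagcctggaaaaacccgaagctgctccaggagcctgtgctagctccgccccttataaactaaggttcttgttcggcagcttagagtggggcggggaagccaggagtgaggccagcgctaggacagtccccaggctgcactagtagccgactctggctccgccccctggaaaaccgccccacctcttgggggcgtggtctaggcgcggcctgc
Txnrd1 site: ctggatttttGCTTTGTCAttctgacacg
Srxn1 had the variant form at 2 places, TGAGTCAGC on the gene's strand 45 to 37 bases before the RefSeq start and TGAGTCGGC on the opposite strand 158 to 150 bases before it. Prdx1 had TGACTCAGC on the opposite strand 133 to 125 bases before its start. The Txnrd1 match, TGACAAAGC on the opposite strand, lay 92 to 84 bases before the second of its 3 RefSeq starts. It came after the first annotated exon base in that window, and whether an exon covers it was not worked out. That of Txn2, TGAGAGGGC on the opposite strand, lay 187 to 179 bases before its start.

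Levels are in TPM, transcripts scaled to a common library total. The authors made these values with kallisto, and they are per length, so genes can be compared within a library. The listed genes summed to 927024 to 937134 TPM per library, 12229 to 12700 genes reached 1 TPM, and the sequencing depth is unknown. All 9 fibroblast markers were at 37.2 TPM or more in every library, and the epithelial keratin Krt5 was listed at 0 in all. The summed fibroblast markers ran from 9750 to 11270 TPM in DMSO and from 3803 to 4815 in Cardamonin. The 4 leukocyte markers summed to 9.73 to 13 TPM in DMSO, against 2.10 to 2.64 in Cardamonin, 2.52 to 3.55 in AEG 3482, 2.62 to 3.40 in Antimycin A and 3.84 to 4.18 in Podofilox. Most of that was Adgre1, at 9.05 to 12.1 TPM in DMSO, while Ptprc was at most 0.876 and Cd3e at most 0.0340 TPM in any library. The part of these shifts in the results was not tested. Library numbers ran without a gap within every group, so a batch in that order and the treatment cannot be told apart. In bulk RNA, fewer cells of a type and less RNA per cell cannot be told apart either.

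In DMSO the levels spanned a wide range. Prdx1, a cytosolic peroxiredoxin, was the most abundant of the 10 at 2170 ± 299 TPM (SD, n = 6). It was followed by its cytosolic relative Prdx2 at 356 ± 17.4, by Txn1, the cytosolic thioredoxin, at 288 ± 17.3, and by Prdx6, a peroxiredoxin that draws on glutathione, at 166 ± 9.89 TPM. Txnip stood at 134 ± 15.9, the sulfiredoxin Srxn1 at 88.7 ± 10.8, the mitochondrial thioredoxin Txn2 at 78.6 ± 6.32, the cytosolic reductase Txnrd1 at 60.5 ± 7.27 and the mitochondrial peroxiredoxin Prdx3 at 56.5 ± 1.95 TPM. The mitochondrial reductase Txnrd2 was lowest at 5.36 ± 0.453 TPM. The 10 genes together made up 0.364% of the listed TPM in DMSO, 2.30% in Cardamonin and 1.32% in AEG 3482. Between the highest and the lowest group mean, Srxn1 varied 22-fold, Txnrd1 9.40-fold, Prdx1 9.0-fold and Prdx6 6.58-fold. Txn1 varied 2.83-fold, Txnrd2 2.03-fold, Txnip 2.02-fold, Txn2 1.81-fold, Prdx3 1.33-fold and Prdx2 1.19-fold. The 4 genes with the widest ranges were cytosolic ones, and the cytosolic Prdx2 had the narrowest range of the 10.

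**Figure D1:**
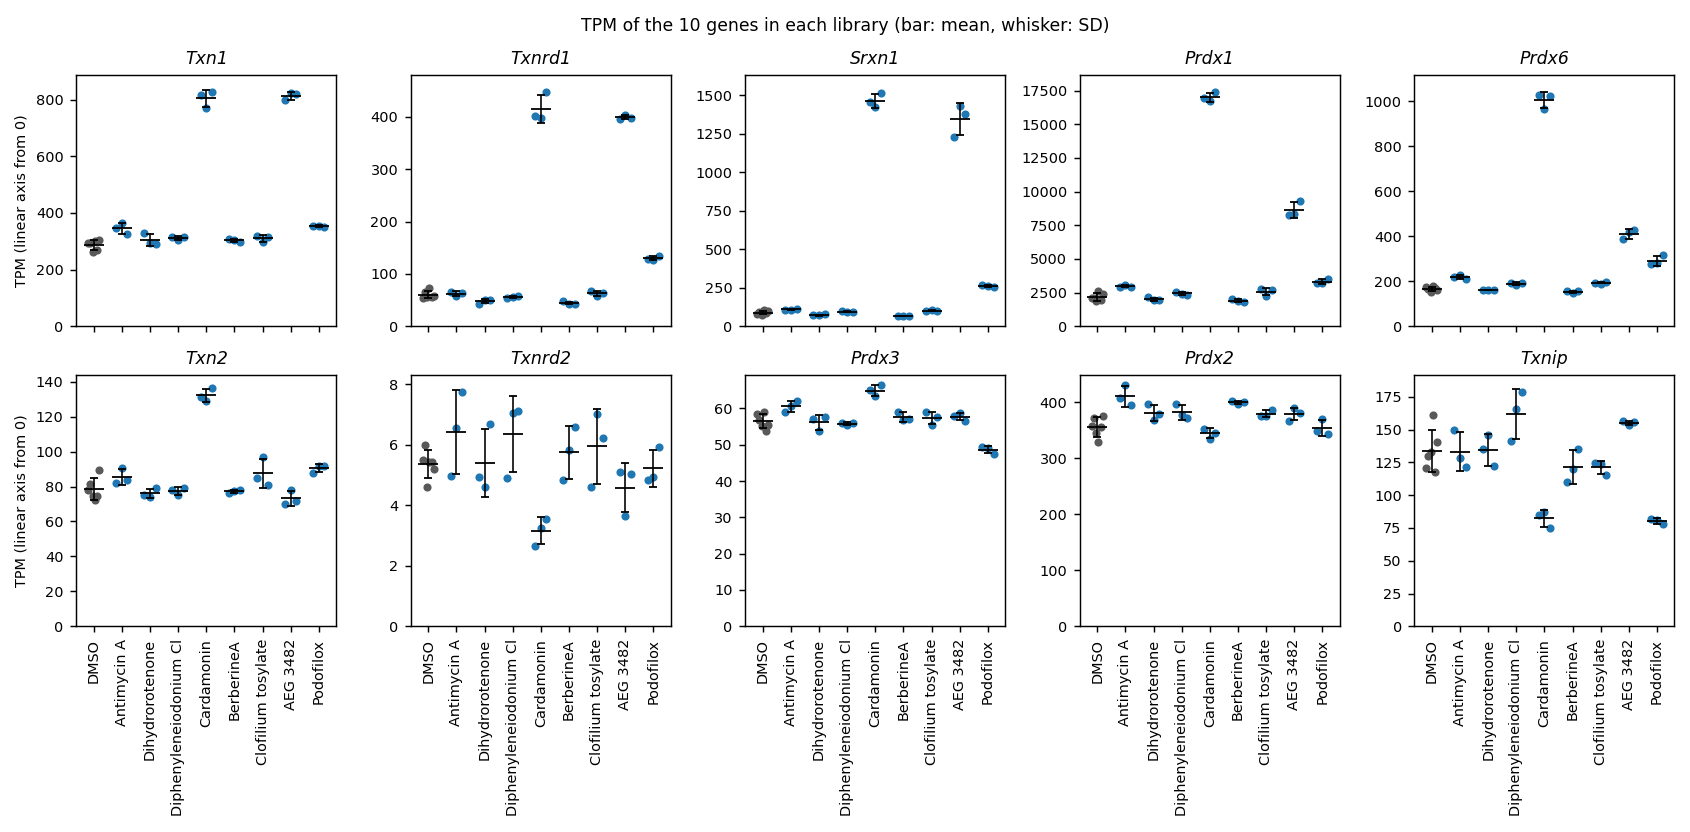
Levels of the 10 genes in TPM (vertical axes, linear, from 0) in each library of DMSO (grey, n = 6) and 8 compounds (blue, n = 3 each), with the mean as a bar and the SD as a whisker. In the upper row the Cardamonin and AEG 3482 libraries lie far above DMSO, for Srxn1 at 1230 TPM or more against at most 103, and in the lower row Txnip is lowest in Cardamonin and Podofilox.

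Each compound was compared with DMSO by limma on log2(TPM + 1), so that every difference below is on that scale, where changes at a few TPM come out smaller than they are, and p-values were adjusted over the 13644 genes tested. All 10 genes passed the filter on low values. Since they were chosen with earlier results of these data known, their counts and medians beside all genes are a description. All 8 comparisons share the 6 DMSO libraries. With Cardamonin 7 of the 10 genes were called higher and 2 lower at an adjusted p under 0.05. Of all tested genes 37.3% were called higher and 33% lower, 70.3% in either direction, and the median difference was 1.11 for the 10 genes against 0.03 for all. With AEG 3482 7 were higher and none lower, against 41.3% higher and 26.8% lower of all genes (68.1% in either direction), with a median of 0.76 against 0.10. With Podofilox 6 were higher and 2 lower, against 26.2% and 20% of all genes (46.2%), with a median of 0.25 against 0.04. Antimycin A had 6 higher and none lower, against 21.8% and 15.5% of all genes (37.3%), with a median of 0.21 against 0.03. The other 4 compounds had fewer calls. Clofilium tosylate had 3 higher and none lower, against 10.9% and 12.5% of all genes (23.4%), and a median of 0.11. BerberineA had 1 higher and 2 lower, against 12.6% and 9.16% (21.7%), and a median of -0.07. Diphenyleneiodonium Cl had 2 higher and none lower, against 14% and 11.7% (25.7%), and a median of 0.11. Dihydrorotenone had none higher and 2 lower, against 4.95% and 9.43% (14.4%), and a median of -0.02. With these 4 compounds and with AEG 3482 the share of the 10 genes called lay near that of all genes, which is not a result about them. Scaling by median ratios also moved the split of all calls: the share that was higher went from 60.7% to 46.4% in AEG 3482, from 34.4% to 49.97% in Dihydrorotenone and from 57.9% to 47.5% in BerberineA. The same scaling moved the median of all genes in AEG 3482 from 0.10 to -0.04, so small differences in that compound are read against that shift.

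**Figure D2:**
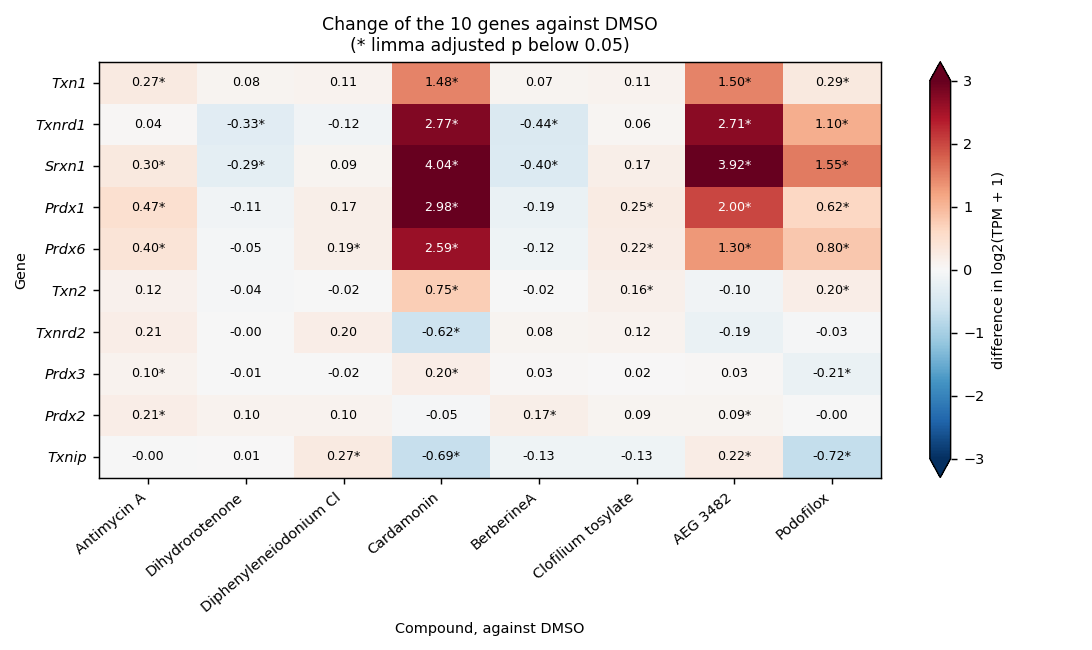
Differences of the 10 genes (rows) from DMSO in log2(TPM + 1) for each compound (columns), with the value printed in each cell and an asterisk where the limma adjusted p was below 0.05. The dark cells are Srxn1, Prdx1, Txnrd1, Prdx6 and Txn1 in Cardamonin and AEG 3482, up to 4.04 for Srxn1 in Cardamonin. Srxn1 in Podofilox (1.55) is also among them.

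Txn1 (ENSMUSG00000028367, chr4:57943373-57956411, GRCm38, minus strand) encodes the cytosolic thioredoxin and rose in 4 of the 8 compounds. Its DMSO libraries ran from 263 to 303 TPM with a median of 295. The Cardamonin libraries were at 817, 770.0 and 826 TPM and the AEG 3482 libraries at 799, 824 and 820.2 TPM. All 6 lay above every other library of the series. The difference from DMSO was 1.48 ± 0.05 (SE; adjusted p = 2.08e-19) in Cardamonin, 2.79-fold in mean TPM, and 1.5 ± 0.05 (adjusted p = 3.00e-19) in AEG 3482, 2.83-fold. Podofilox (356, 353 and 349 TPM) and Antimycin A (346, 366 and 327 TPM) also lay wholly above the DMSO range. They rose by 0.29 ± 0.05 (adjusted p = 1.19e-05) and 0.27 ± 0.05 (adjusted p = 6.13e-05). In the other 4 compounds the difference was 0.07 to 0.11 and did not pass. In Diphenyleneiodonium Cl the 3 libraries, at 304 to 315 TPM, nevertheless all exceeded the highest DMSO library, with a difference of 0.11 (adjusted p = 0.0818). In the order of group means, AEG 3482 and Cardamonin overlapped, Podofilox and Antimycin A overlapped below them, and from Diphenyleneiodonium Cl down to DMSO each group overlapped the next. Of the 31-base stretches of Txn1 transcripts, 6.95% also occur in the pseudogene Txn-ps1, which was at most 3.05 TPM.

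Txnrd1 (ENSMUSG00000020250, chr10:82833951-82897712, plus strand) encodes the cytosolic thioredoxin reductase. DMSO libraries ran from 53.8 to 72.5 TPM with a median of 57.4, and replicate 4 was the highest. The libraries treated with Cardamonin were at 402, 399 and 447 TPM, AEG 3482 libraries at 396, 404 and 397 TPM, and Podofilox libraries at 129, 126 and 134 TPM. These 3 groups lay wholly above DMSO, and Podofilox was wholly below the other two. The rises were 2.77 ± 0.07 (6.88-fold, adjusted p = 7.63e-21) in Cardamonin, 2.71 ± 0.07 (6.60-fold, adjusted p = 1.99e-20) in AEG 3482 and 1.10 ± 0.07 (2.15-fold, adjusted p = 6.76e-12) in Podofilox. It fell with 2 compounds. BerberineA libraries were at 47.4, 42.4 and 42.9 TPM and Dihydrorotenone libraries at 43.3, 50.3 and 49.1 TPM, all below the lowest DMSO library. The level fell by 0.44 ± 0.07 (adjusted p = 9.81e-05) in BerberineA and by 0.33 ± 0.07 (adjusted p = 0.00314) in Dihydrorotenone. The latter was -0.33 with an adjusted p of 0.0547 when only Dihydrorotenone and DMSO were fitted. Antimycin A, Clofilium tosylate and Diphenyleneiodonium Cl overlapped DMSO, with differences of 0.04, 0.06 and -0.12 that did not pass.

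Srxn1 (ENSMUSG00000032802, chr2:152105516-152111376, plus strand), the sulfiredoxin whose promoter is printed above, changed the most. Its DMSO libraries ran from 73.9 to 103 TPM with a median of 89.3. Cardamonin libraries were at 1457, 1425 and 1515 TPM, AEG 3482 libraries at 1230, 1431 and 1379 TPM, and Podofilox libraries at 266, 258 and 257 TPM. The first 2 groups overlapped each other, and Podofilox lay between them and DMSO without touching either. The rises were 4.04 ± 0.07 (16.5-fold, adjusted p = 2.57e-24) in Cardamonin, 3.92 ± 0.07 (15.2-fold, adjusted p = 1.11e-23) in AEG 3482 and 1.55 ± 0.07 (2.93-fold, adjusted p = 2.16e-15) in Podofilox. Antimycin A was next, at 108, 107 and 111 TPM, just above the highest DMSO library, with a rise of 0.30 ± 0.07 (adjusted p = 0.00104). BerberineA (68.4, 65.0 and 66.3 TPM) lay below DMSO and fell by 0.40 ± 0.07 (adjusted p = 9.12e-05). Dihydrorotenone (69.4, 71.2 and 75.8 TPM) overlapped the lowest DMSO library and fell by 0.29 ± 0.07 (adjusted p = 0.00499). That difference kept its value of -0.29 but had an adjusted p of 0.0899 when only Dihydrorotenone and DMSO were fitted. With a block for replicate number, which leaves DMSO replicates 1 to 3 as the comparison, it was -0.19 (adjusted p = 0.0606). Clofilium tosylate (97.8 to 102 TPM) and Diphenyleneiodonium Cl (91.1 to 98.3 TPM) overlapped DMSO and did not pass, at 0.17 (adjusted p = 0.0650) and 0.09 (adjusted p = 0.392). Without DMSO replicate 4, the highest of its group for this gene, the Clofilium tosylate difference was 0.22 with an adjusted p of 0.00942, and without DMSO replicate 6 it was 0.20 with 0.0385.

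Prdx1 (ENSMUSG00000028691, chr4:116685544-116700822, plus strand), the main cytosolic peroxiredoxin, separated the 2 strongest compounds. DMSO libraries ran from 1843 to 2632 TPM with a median of 2096. Values in Cardamonin were 16957, 16710 and 17377 TPM, AEG 3482 libraries at 8277, 8305 and 9296 TPM, Podofilox libraries at 3200, 3212 and 3528 TPM and Antimycin A libraries at 2905, 3094 and 2944 TPM. These 4 groups stood one above the other without overlap, and all lay above DMSO. The rises were 2.98 ± 0.08 (7.84-fold, adjusted p = 1.55e-20), 2.0 ± 0.08 (3.98-fold, adjusted p = 8.61e-17), 0.62 ± 0.08 (1.53-fold, adjusted p = 8.85e-07) and 0.47 ± 0.08 (1.37-fold, adjusted p = 6.38e-05), in that order. Clofilium tosylate (2792, 2253 and 2657 TPM) overlapped DMSO and passed narrowly, with a rise of 0.25 ± 0.08 (adjusted p = 0.0310). That call was lost without Clofilium tosylate replicate 1 (0.18, adjusted p = 0.186) or 3 (0.22, 0.123), and without DMSO replicate 1 (0.24, 0.0518), 3 (0.20, 0.0714) or 5 (0.22, 0.0674). The Clofilium tosylate call was also lost without a filter on low values (0.25, 0.0672) and after median-ratio scaling (0.25, 0.0531). It was likewise lost when only Clofilium tosylate and DMSO were fitted (0.25, 0.158). Diphenyleneiodonium Cl (0.17), Dihydrorotenone (-0.11) and BerberineA (-0.19) overlapped DMSO and did not pass. Without DMSO replicate 4 the Diphenyleneiodonium Cl difference was 0.23 (adjusted p = 0.0217), and without DMSO replicate 3 the BerberineA difference was -0.23 (adjusted p = 0.0371). With a block for replicate number, which leaves DMSO replicates 1 to 3 as the comparison, the Diphenyleneiodonium Cl difference was 0.27 (adjusted p = 0.00903). Of the 31-base stretches of Prdx1 transcripts, 15.2% occur in at least 1 of 304 other genes, whose mean levels sum to 16234 TPM. The pseudogene Gm21399 shares the most of them and was at most 8.32 TPM, and how the authors' counting split such reads was not tested.

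Prdx6 (ENSMUSG00000026701, chr1:161240112-161251219, minus strand) differs from the other peroxiredoxins in using a single catalytic cysteine and glutathione. It was called higher in 6 of 8 compounds and lower in none, while Srxn1, with as many calls, had 4 higher and 2 lower. DMSO libraries ran from 152 to 180 TPM with a median of 167. Cardamonin libraries were at 1030, 963 and 1022 TPM, AEG 3482 libraries at 387, 419 and 429 TPM, Podofilox libraries at 276, 279 and 315 TPM and Antimycin A libraries at 217, 228 and 212 TPM. Again the 4 groups did not overlap each other or DMSO. The rises were 2.59 ± 0.05 (6.04-fold, adjusted p = 8.95e-24), 1.30 ± 0.05 (2.47-fold, adjusted p = 5.67e-18), 0.80 ± 0.05 (1.74-fold, adjusted p = 5.12e-13) and 0.40 ± 0.05 (1.32-fold, adjusted p = 2.30e-07). Clofilium tosylate (194, 190 and 197 TPM) and Diphenyleneiodonium Cl (190, 184 and 194 TPM) also lay wholly above DMSO, with rises of 0.22 ± 0.05 (adjusted p = 0.00110) and 0.19 ± 0.05 (adjusted p = 0.00398). Dihydrorotenone and BerberineA overlapped DMSO, with differences of -0.05 and -0.12 that did not pass. Without DMSO replicate 3, the lowest of its group, the BerberineA difference was -0.15 (adjusted p = 0.0195).

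Prdx2 (ENSMUSG00000005161, chr8:84969587-84974834, plus strand), a close relative of Prdx1 in the cytosol, stayed within a narrow band. DMSO libraries ran from 329 to 376 TPM with a median of 357, and all 24 treated libraries lay between 335 and 431 TPM. Antimycin A (407, 431 and 395 TPM) and BerberineA (402, 397 and 401 TPM) lay above DMSO and rose by 0.21 ± 0.04 (adjusted p = 1.56e-04) and 0.17 ± 0.04 (adjusted p = 0.00250). The BerberineA value was 0.14 with an adjusted p of 0.0747 after median-ratio scaling. In Cardamonin (353, 335 and 346 TPM), where Prdx1 rose most, the Prdx2 difference was -0.05, with a 95% interval of -0.13 to 0.04 (adjusted p = 0.311), and after median-ratio scaling it was -0.13 (adjusted p = 0.0442). In Podofilox it was -0.00487 (interval -0.09 to 0.08, adjusted p = 0.936). In AEG 3482 (368, 389.6 and 381 TPM) a difference of 0.09 ± 0.04 passed narrowly (adjusted p = 0.0427), overlapped DMSO and turned to -0.06 under median-ratio scaling and under quantile normalization, so no direction is given. That call was also lost without AEG 3482 replicate 2 (0.07, adjusted p = 0.176) or 3 (0.09, 0.102) and without DMSO replicate 1 (0.09, 0.0501), 3 (0.08, 0.0754), 4 (0.07, 0.103) or 5 (0.09, 0.0552). The other 3 compounds had differences of 0.09 to 0.10 that did not pass with all libraries. In Clofilium tosylate (0.09, adjusted p = 0.0935) the lowest library, at 375.9 TPM, nevertheless lay just above the highest DMSO library, at 375.8 TPM. Without DMSO replicate 6, Dihydrorotenone (0.12, adjusted p = 0.0454), Diphenyleneiodonium Cl (0.12, 0.0294) and Clofilium tosylate (0.11, 0.0456) passed, as did Diphenyleneiodonium Cl without DMSO replicate 2 (0.11, 0.0400). Prdx2 overlaps Junb by 351 bases and Rnaseh2a by 181 bases on the opposite strand, and whether counting used strand is not given in the sources used here. Of its 31-base stretches 16.4% occur in at least 1 of 5 other genes, whose mean levels sum to 182 TPM, and the pseudogene Tdpx-ps1, at most 0.353 TPM, shares the most.

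Of the 3 mitochondrial genes, Txn2 and Prdx3 rose and Txnrd2 fell in Cardamonin. Txn2 (ENSMUSG00000005354, chr15:77915047-77929006, minus strand), the mitochondrial thioredoxin, ran from 72.5 to 89.7 TPM in DMSO with a median of 76.5. Cardamonin libraries were at 131, 129 and 136 TPM and rose by 0.75 ± 0.06 (1.68-fold, adjusted p = 8.40e-12), while AEG 3482 libraries were at 70.0, 78.2 and 71.5 TPM with a difference of -0.10 (adjusted p = 0.130). Only the Cardamonin group cleared the DMSO range. The AEG 3482 value was -0.25 (adjusted p = 0.00142) after median-ratio scaling and -0.26 (adjusted p = 3.06e-04) after quantile normalization. Podofilox libraries, at 87.7, 91.6 and 91.9 TPM, overlapped the highest DMSO library and rose by 0.20 ± 0.06 (adjusted p = 0.00442). Clofilium tosylate libraries were at 85.1, 97.0 and 81.1 TPM, and their rise of 0.16 ± 0.06 (adjusted p = 0.0456) was lost without Clofilium tosylate replicate 1 (0.18, 0.0628) or 2 (0.08, 0.395) and without DMSO replicate 1 (0.16, 0.0627), 3 (0.14, 0.0861), 4 (0.13, 0.0904) or 5 (0.14, 0.0859). The Clofilium tosylate call was also lost without a filter on low values (0.16, 0.0671) and without the intensity trend of the fit (0.16, 0.0567). Median-ratio scaling (0.16, 0.0753), rescaling without the 20 most abundant genes (0.15, 0.0608) and a fit of Clofilium tosylate and DMSO only (0.16, 0.189) lost it as well. In Antimycin A (0.12, adjusted p = 0.104) the difference passed without DMSO replicate 6 (0.16, 0.0154). In the other 3 compounds the difference lay between -0.04 and -0.02 and did not pass.

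Txnrd2 (ENSMUSG00000075704, chr16:18426384-18479073, plus strand), the mitochondrial reductase, was low everywhere, and its DMSO libraries ran from 4.61 to 6.0 TPM with a median of 5.42. In Cardamonin they were at 2.66, 3.26 and 3.54 TPM, below every other library of the series. The level fell by 0.62 ± 0.14 (adjusted p = 3.08e-04), a mean of 3.15 against 5.36 TPM. The other 7 compounds overlapped DMSO, with differences between -0.19 and 0.21 that did not pass, and their libraries ran from 3.64 to 7.75 TPM. In AEG 3482 the difference was -0.19 (adjusted p = 0.217), and -0.32 (adjusted p = 0.0399) after median-ratio scaling. Prdx3 (ENSMUSG00000024997, chr19:60864051-60874556, minus strand), the mitochondrial peroxiredoxin, ran from 53.9 to 58.9 TPM in DMSO with a median of 56.2. Cardamonin libraries (64.9, 63.5 and 66.3 TPM) lay above DMSO and Podofilox libraries (49.4, 49.0 and 47.5 TPM) below it. The level rose by 0.20 ± 0.03 (adjusted p = 7.97e-06) in the first and fell by 0.21 ± 0.03 (adjusted p = 9.78e-06) in the second. Antimycin A libraries (59.1, 60.7 and 62.1 TPM) also cleared the DMSO range, with a rise of 0.10 ± 0.03 (adjusted p = 0.0170) that was lost without Antimycin A replicate 3 (0.08, 0.10) and under 3 other scalings (0.07, adjusted p 0.142 to 0.200). A fit of Antimycin A and DMSO only also lost that rise (0.10, 0.103). In AEG 3482 the difference was 0.03 (adjusted p = 0.390) as deposited and -0.12 (adjusted p = 0.0145) after median-ratio scaling, so no direction is given. The remaining 4 compounds lay between -0.02 and 0.03 and did not pass.

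Txnip (ENSMUSG00000038393, chr3:96557957-96561883, plus strand), the inhibitor of thioredoxin, fell in 2 compounds, Cardamonin and Podofilox. DMSO libraries ran from 117 to 161 TPM with a median of 131. Cardamonin libraries were at 84.8, 87.2 and 75.1 TPM and Podofilox libraries at 82.0, 81.0 and 77.8 TPM. Both groups lay below every other library of the series and overlapped each other. The level fell by 0.69 ± 0.09 (adjusted p = 1.36e-07) in Cardamonin and by 0.72 ± 0.09 (adjusted p = 2.07e-07) in Podofilox, to 0.616 and 0.60 of the DMSO mean. AEG 3482 libraries, at 156, 154 and 156 TPM, lay inside the DMSO range. Their difference of 0.22 ± 0.09 (adjusted p = 0.0285) did not pass without any 1 of the AEG 3482 libraries (0.22 to 0.23, adjusted p 0.0567 to 0.0719) or without DMSO replicate 1 (0.19, 0.0598) or 5 (0.19, 0.0652), and was 0.07 (adjusted p = 0.489) after median-ratio scaling. Diphenyleneiodonium Cl libraries, at 141, 165 and 179 TPM, overlapped DMSO and had a difference of 0.27 ± 0.09 (adjusted p = 0.0221). It was lost without Diphenyleneiodonium Cl replicate 2 (0.26, 0.0871) or 3 (0.20, 0.173) or DMSO replicate 5 (0.24, 0.0506). A fit of Diphenyleneiodonium Cl and DMSO only lost it too (0.27, 0.0769). The other 4 compounds overlapped DMSO, with differences of -0.13 to 0.01 that did not pass.

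Ratios within a library do not depend on its scaling. The ratio of Txnip to Txn1, inhibitor to thioredoxin, was 0.464 ± 0.0467 (SD, n = 6) in DMSO, with libraries from 0.410 to 0.534. It was 0.103 ± 0.0112 in Cardamonin, 0.191 ± 0.00486 in AEG 3482 and 0.228 ± 0.00413 in Podofilox (n = 3 each), all wholly below DMSO and without overlap among the 3. The other 5 compounds overlapped DMSO. The 3 low ratios were made in different ways, by a higher Txn1 with a lower Txnip in Cardamonin and in Podofilox, and in AEG 3482 by a higher Txn1 with Txnip inside the DMSO range. The ratio of the cytosolic to the mitochondrial reductase, Txnrd1 to Txnrd2, was 11.3 ± 1.31 in DMSO, 133 ± 15.5 in Cardamonin, 89.3 ± 18.7 in AEG 3482 and 25 ± 2.12 in Podofilox. These 3 groups did not overlap each other or DMSO. In BerberineA it was 7.87 ± 1.73, and its highest library, at 9.82, lay just below the lowest DMSO library at 9.83.

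**Figure D3:**
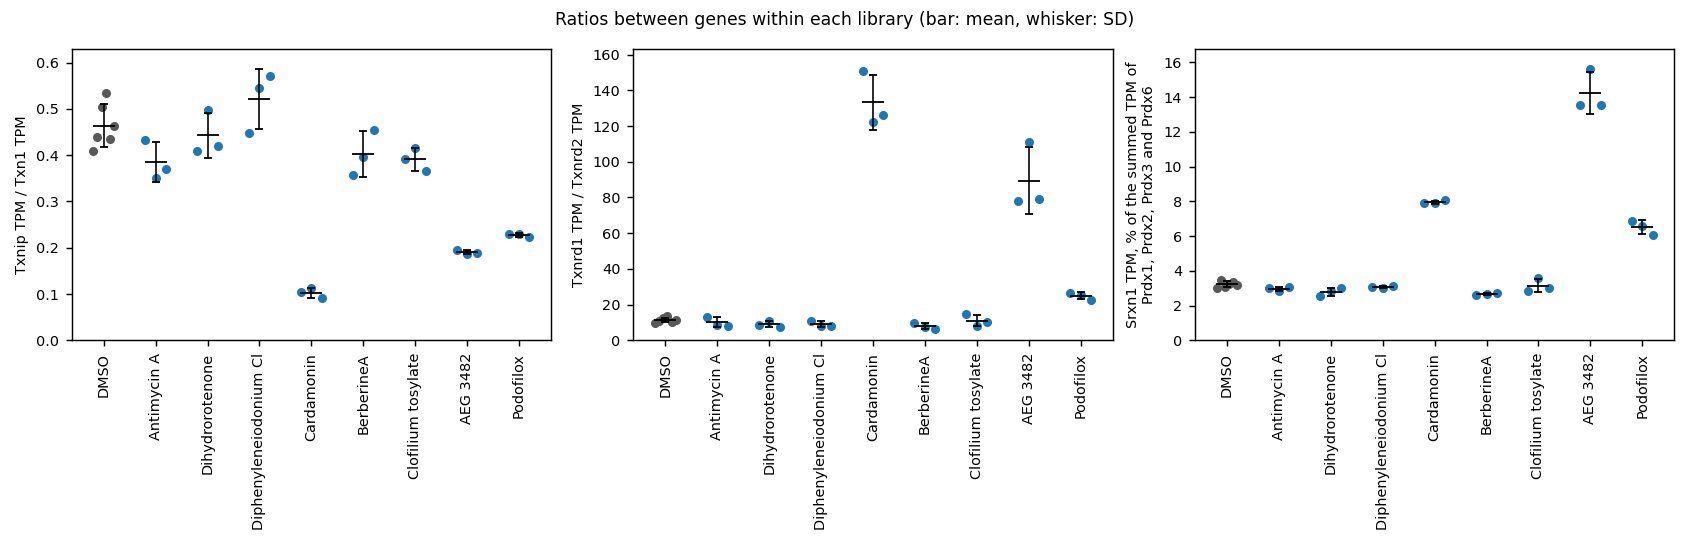
Ratios of TPM between genes in each library (vertical axes, linear, from 0) of DMSO (grey, n = 6) and 8 compounds (blue, n = 3 each), with the mean as a bar and the SD as a whisker. Txnip per Txn1 is lowest in Cardamonin (0.103), Txnrd1 per Txnrd2 is highest in Cardamonin (133), and Srxn1 relative to the 4 peroxiredoxins is highest in AEG 3482 (14.2%).

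The repair enzyme and the peroxiredoxins it serves did not move in proportion. Srxn1 came to 3.23 ± 0.167% of the summed TPM of Prdx1, Prdx2, Prdx3 and Prdx6 in DMSO (3.03% to 3.46%). The sum includes Prdx6, which sulfiredoxin is not known to repair. The share was 14.2 ± 1.19% in AEG 3482, 7.95 ± 0.0889% in Cardamonin and 6.51 ± 0.410% in Podofilox, all above DMSO and apart from each other. It was lower than in any DMSO library in Dihydrorotenone (2.78 ± 0.236%) and BerberineA (2.66 ± 0.0569%). AEG 3482 thus had the higher share and Cardamonin the higher peroxiredoxin sum, 18430 TPM against 9474 TPM and against 2749 TPM in DMSO. Prdx1 alone made up 78.7 ± 2.12% of that sum in DMSO, 92.3 ± 0.171% in Cardamonin and 91.0 ± 0.467% in AEG 3482. Cytosolic over mitochondrial thioredoxin, Txn1 to Txn2, was 3.68 ± 0.272 in DMSO, 6.08 ± 0.125 in Cardamonin and 11.1 ± 0.518 in AEG 3482, and the other 6 compounds overlapped DMSO.

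Cardamonin and AEG 3482 raised Txn1, Txnrd1 and Srxn1 by similar amounts, so they were compared directly. At unknown doses, 4 of the 10 genes were higher with Cardamonin and 3 lower, where 22.6% of all tested genes were higher and 32.7% lower (55.3% in either direction). The differences of Txn1, -0.02 (95% interval -0.13 to 0.09, adjusted p = 0.800), of Txnrd1, 0.06 (-0.12 to 0.23, adjusted p = 0.607), and of Srxn1, 0.12 (-0.04 to 0.29, adjusted p = 0.183), did not pass. The sign of the Txn1 difference turned under 3 other scalings and the Srxn1 difference was 0.20 (adjusted p = 0.0432) after median-ratio scaling. Prdx6 was higher with Cardamonin by 1.29 ± 0.05 (2.44-fold, adjusted p = 7.83e-16), Prdx1 by 0.98 ± 0.10 (1.97-fold, adjusted p = 3.18e-09), Txn2 by 0.85 ± 0.07 (1.81-fold, adjusted p = 5.30e-11) and Prdx3 by 0.17 ± 0.04 (adjusted p = 6.43e-04). Txnip was lower by a difference of -0.91 ± 0.10 (adjusted p = 3.25e-08). The pair therefore differed in Prdx6, Prdx1 and Prdx3, in mitochondrial thioredoxin and in Txnip. Prdx2 (-0.14, adjusted p = 0.0127) and Txnrd2 (-0.42, adjusted p = 0.0271) passed narrowly and each was lost under median-ratio scaling (-0.06, adjusted p = 0.411, and -0.36, adjusted p = 0.0536). Prdx2 was also lost without Cardamonin replicate 2 (-0.12, 0.0577) or AEG 3482 replicate 2 (-0.12, 0.0588). Txnrd2 was lost without Cardamonin replicate 1 (-0.33, 0.121) or AEG 3482 replicate 1 (-0.35, 0.102) or 3 (-0.36, 0.0976).

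**Figure D4:**
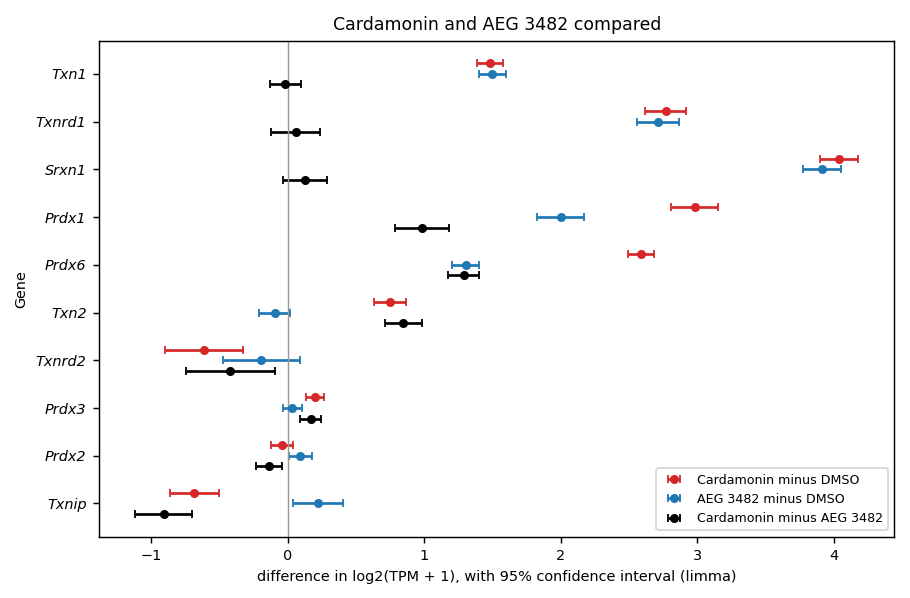
Differences in log2(TPM + 1) for each gene (rows), with 95% confidence intervals from limma, for Cardamonin minus DMSO (red), AEG 3482 minus DMSO (blue) and Cardamonin minus AEG 3482 (black). The black points of Txn1, Txnrd1 and Srxn1 have intervals that span 0, and those of Prdx6 (1.29), Prdx1 (0.98), Txn2 (0.85) and Txnip (-0.91) lie far from it.

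The 2 respiratory chain inhibitors were compared in the same way. Antimycin A, which blocks complex III, was higher than Dihydrorotenone, which blocks complex I, in 5 of the 10 genes and lower in none, where 11.6% of all tested genes were higher and 3.91% lower (15.5% in either direction). Of all calls 74.8% were thus higher with Antimycin A, and 51.6% after median-ratio scaling. Srxn1 was higher by 0.58 ± 0.08 (1.51-fold, adjusted p = 8.23e-06), Prdx1 by 0.58 ± 0.10 (1.49-fold, adjusted p = 1.24e-04), Prdx6 by 0.44 ± 0.05 (1.36-fold, adjusted p = 2.25e-06) and Txnrd1 by 0.38 ± 0.09 (1.30-fold, adjusted p = 0.00321). The libraries of the pair did not overlap for any of these. Txn1 was higher by 0.19 ± 0.05 (adjusted p = 0.0180) with overlap. That call was lost under median-ratio scaling (0.12, adjusted p = 0.315) and without Antimycin A replicate 1 (0.19, 0.0541) or 2 (0.15, 0.0975) or Dihydrorotenone replicate 2 (0.16, 0.0833) or 3 (0.15, 0.0982). For Txnip the difference was -0.01 (interval -0.22 to 0.19, adjusted p = 0.950).

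Podofilox, the third compound with large changes in these genes, was set against Cardamonin, and 7 of the 10 genes were lower and 1 higher, where 28.7% of all tested genes were lower and 29.1% higher (57.8% in either direction). The largest differences were -2.49 ± 0.08 for Srxn1 (adjusted p = 6.88e-19), -2.36 ± 0.10 for Prdx1 (adjusted p = 9.96e-17), -1.79 ± 0.05 for Prdx6 (adjusted p = 4.29e-19), -1.67 ± 0.09 for Txnrd1 (adjusted p = 1.04e-14) and -1.19 ± 0.05 for Txn1 (adjusted p = 9.74e-16). Txn2 (-0.54) and Prdx3 (-0.41) were also lower in Podofilox and Txnrd2 (0.58, adjusted p = 0.00274) was higher. Txnip, with a difference of -0.03 (interval -0.24 to 0.17, adjusted p = 0.796), and Prdx2, at 0.04 (-0.05 to 0.13, adjusted p = 0.464), did not pass. The Txnip libraries of the pair overlapped, while mean Srxn1 TPM in Podofilox was 0.178 of that in Cardamonin.

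For 3 of the genes, the tested protein-coding genes with the most similar 8 differences from DMSO were listed, among 9626 genes with a mean of at least 5 TPM. Likeness was measured as the mean absolute difference over the 8 compounds, which share the DMSO libraries, and is a description. Nearest to Srxn1 were Hmox1 (0.24), which encodes a heme-degrading enzyme, and Gclc (0.35) and Gclm (0.36), the subunits of the enzyme that starts glutathione synthesis. Hmox1 had differences of 4.54 in Cardamonin and 3.80 in AEG 3482 but 0.56 in Podofilox, where Srxn1 had 1.55. Nearest to Txnrd1 were Abcc1 (0.16), a transporter that exports glutathione conjugates, Camk1d (0.20), a calcium-dependent kinase, and Osgin1 (0.21). Nearest to Txnip were Ahnak (0.11), Rab13 (0.11), a small GTPase, and Klhl36 (0.11). After median-ratio scaling 8 of these 9 genes were listed again, and Abi3bp took the place of Klhl36.

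A wider list of 40 other genes of these systems had 38 that were tested, and the low Sesn3 and Mlxipl were not. Cardamonin raised 17 and lowered 12 of them, where 37.3% of all tested genes were higher and 33% lower, with a median difference of 0.07 against 0.03. AEG 3482 raised 21 and lowered 7, where 41.3% were higher and 26.8% lower, with a median of 0.18 against 0.10. Podofilox raised 13 and lowered 11 (all genes 26.2% and 20%), Antimycin A raised 9 and lowered 8 (21.8% and 15.5%), Diphenyleneiodonium Cl raised 5 and lowered 6 (14% and 11.7%), and Clofilium tosylate raised 4 and lowered 6 (10.9% and 12.5%). BerberineA raised 3 and lowered 5 (12.6% and 9.16%), and Dihydrorotenone raised none and lowered 5 (4.95% and 9.43%). Over the 38 genes these counts lie near the shares of all tested genes in several compounds, such as Cardamonin and Diphenyleneiodonium Cl, and nothing is read from them about the list. The largest rise in it was Gsr, which encodes glutathione reductase, the counterpart of thioredoxin reductase in the glutathione system. It went from 23.5 ± 2.38 TPM in DMSO to 174 ± 11.3 in Cardamonin (2.84 ± 0.07, adjusted p = 1.06e-21), 144 ± 8.76 in AEG 3482 (2.56 ± 0.07, adjusted p = 1.60e-20) and 44.9 ± 2.03 in Podofilox (0.91 ± 0.07, adjusted p = 5.65e-11). Smaller rises of Gsr were seen in Antimycin A (0.54, adjusted p = 7.21e-07), Diphenyleneiodonium Cl (0.41, adjusted p = 5.90e-05) and Clofilium tosylate (0.36, adjusted p = 3.83e-04).

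The sestrins, stress-induced proteins linked to the repair of peroxiredoxins and to growth control, moved in opposite directions. Sesn1 fell from 30.5 ± 1.37 TPM in DMSO to 6.30 ± 0.930 in Cardamonin (-2.12 ± 0.06, adjusted p = 1.24e-20) and 14.0 ± 0.779 in Podofilox (-1.07 ± 0.06, adjusted p = 1.07e-13), and by smaller amounts in 4 other compounds, such as Clofilium tosylate (-0.37, adjusted p = 3.53e-05). Of these, the call in Diphenyleneiodonium Cl (-0.18, adjusted p = 0.0216) was lost without any 1 of the Diphenyleneiodonium Cl libraries (-0.19 to -0.17, adjusted p 0.0517 to 0.0834). Sesn2 stood at 19.0 ± 1.30 TPM in DMSO and rose in 7 of 8 compounds, most in AEG 3482 (40.6 ± 0.578 TPM, a difference of 1.06 ± 0.07, adjusted p = 3.34e-13) and Cardamonin (38.4 ± 1.84 TPM, 0.98 ± 0.07, adjusted p = 9.50e-13). Its rise was 0.59 in Antimycin A (adjusted p = 9.73e-08), 0.52 in Clofilium tosylate (adjusted p = 2.20e-06) and 0.30 in BerberineA (adjusted p = 0.00143). Txndc5, a thioredoxin-like protein of the endoplasmic reticulum, fell in 5 compounds, among them Antimycin A (-0.42, adjusted p = 9.24e-08), BerberineA (-0.41, adjusted p = 5.98e-07) and Dihydrorotenone (-0.32, adjusted p = 6.79e-05). It rose in AEG 3482 (0.52, adjusted p = 3.93e-10) and Podofilox (0.38, adjusted p = 2.86e-07). Msrb2, a mitochondrial methionine sulfoxide reductase, fell in AEG 3482 (-1.02, adjusted p = 3.49e-08) and Cardamonin (-0.58, adjusted p = 1.22e-04), and was called lower in Diphenyleneiodonium Cl (-0.35, adjusted p = 0.0308). The last of these calls was lost without any 1 of the Diphenyleneiodonium Cl libraries (-0.37 to -0.33, adjusted p 0.0706 to 0.108) and without DMSO replicate 2 (-0.30, 0.0668) or 4 (-0.32, 0.0546).

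**Figure D5:**
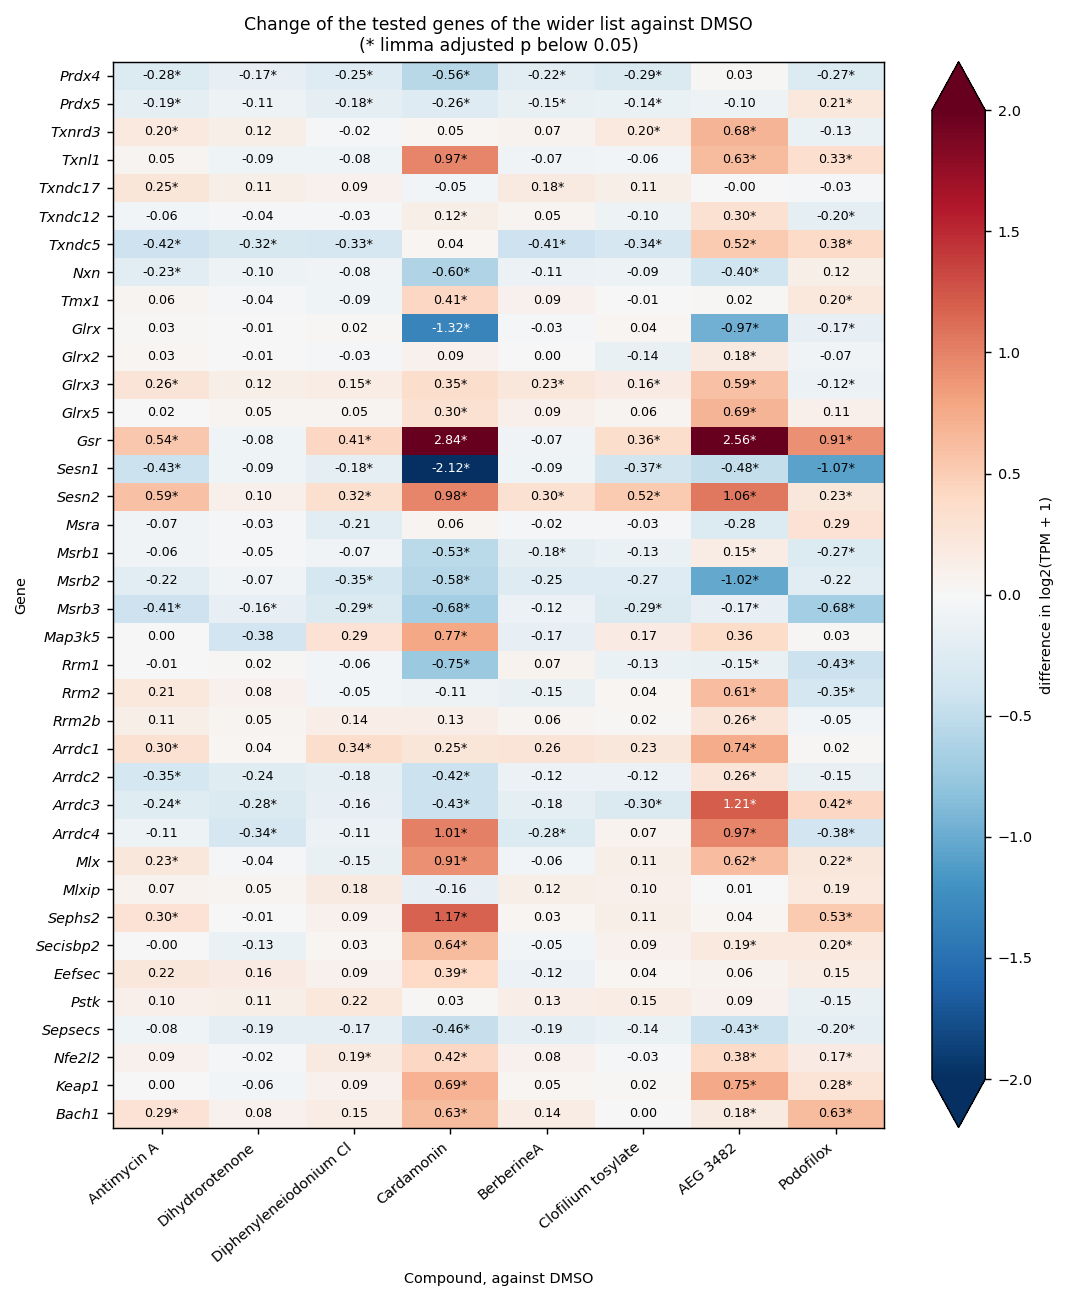
Differences of the 38 tested genes of the wider list (rows) from DMSO in log2(TPM + 1) for each compound (columns), with the value printed in each cell and an asterisk where the limma adjusted p was below 0.05. Gsr stands out as higher in Cardamonin (2.84) and AEG 3482 (2.56) and Sesn1 as lower in Cardamonin (-2.12).

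Some of the remaining families are given because they complete the picture, and these genes were chosen after their values had been seen. They include the 2 other peroxiredoxins. Prdx4, the peroxiredoxin of the endoplasmic reticulum, fell from 292 ± 10.9 TPM to 198 ± 15.6 in Cardamonin (-0.56 ± 0.04, adjusted p = 1.55e-11) and was called lower in 7 of 8 compounds, the exception being AEG 3482 (0.03, adjusted p = 0.631). Its call in Dihydrorotenone (-0.17) was lost without Dihydrorotenone replicate 2 (-0.15, 0.0756) or 3 (-0.15, 0.0548). Median-ratio scaling (-0.13, 0.139) and a fit of Dihydrorotenone and DMSO only (-0.17, 0.0527) lost it too. Prdx5 was called lower in 5 compounds, by -0.26 in Cardamonin (adjusted p = 6.79e-05) and -0.19 in Antimycin A (adjusted p = 0.00444), and rose in Podofilox (0.21, adjusted p = 0.00112). Its other lower calls each depended on single libraries. They were also lost when only the compound and DMSO were fitted, with adjusted p of 0.0715 in Diphenyleneiodonium Cl, 0.143 in BerberineA and 0.168 in Clofilium tosylate. That in Diphenyleneiodonium Cl (-0.18, adjusted p = 0.0109) was lost without Diphenyleneiodonium Cl replicate 2 (-0.16, 0.0562) or 3 (-0.17, 0.0518), and that in BerberineA (-0.15, adjusted p = 0.0281) without BerberineA replicate 3 (-0.12, 0.161) or DMSO replicate 5 (-0.14, 0.0544) or 6 (-0.12, 0.0561). That in Clofilium tosylate (-0.14, adjusted p = 0.0445) was lost without any 1 of the Clofilium tosylate libraries (adjusted p 0.0582 to 0.199) or DMSO replicate 1 (-0.13, 0.0727), 5 (-0.13, 0.0816) or 6 (-0.11, 0.0871). Among relatives of Txnip, Arrdc4 rose where Txnip fell in Cardamonin (1.01 ± 0.06, adjusted p = 6.17e-14), also rose in AEG 3482 (0.97 ± 0.06, adjusted p = 2.15e-13) and fell in Podofilox (-0.38 ± 0.06, adjusted p = 8.45e-06), while Arrdc3 rose in AEG 3482 (1.21 ± 0.07, adjusted p = 3.44e-14) from 30.3 to 71.1 TPM. Arrdc4 also fell in Dihydrorotenone (-0.34, adjusted p = 3.61e-04) and BerberineA (-0.28, adjusted p = 0.00113), and Arrdc3 fell in Cardamonin (-0.43, adjusted p = 2.85e-06).

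Of the 5 genes that supply selenocysteine, the amino acid in the active site of the reductases, Cardamonin raised 3 and lowered 1, where 70.3% of all tested genes were called in either direction, so the count says little about this group. Sephs2, which makes the selenium donor, rose from 22.8 to 52.6 TPM (1.17 ± 0.06, adjusted p = 1.07e-15). In AEG 3482 the Sephs2 difference was 0.04 (adjusted p = 0.503), and compared directly it was higher in Cardamonin than in AEG 3482 by 1.13 ± 0.07 (adjusted p = 2.64e-13). Transcripts of NRF2 and 2 of its inhibitors were called higher in Cardamonin, AEG 3482 and Podofilox, and single ones also in compounds where the Txnrd1 difference did not pass, Nfe2l2 in Diphenyleneiodonium Cl (0.19, adjusted p = 6.78e-04) and Bach1 in Antimycin A (0.29, adjusted p = 3.36e-04). Nfe2l2, which encodes NRF2, rose by 0.42 ± 0.04 in Cardamonin (adjusted p = 4.22e-10), 0.38 ± 0.04 in AEG 3482 (adjusted p = 4.23e-09) and 0.17 ± 0.04 in Podofilox (adjusted p = 8.40e-04). Keap1, which targets NRF2 for degradation, rose by 0.69, 0.75 and 0.28 (adjusted p = 2.90e-10, 7.51e-11 and 6.82e-04). Bach1, a repressor at the same promoter element, rose by 0.63 in Cardamonin (adjusted p = 5.54e-10) and by 0.63 in Podofilox (adjusted p = 2.51e-09), and its rise of 0.18 in AEG 3482 (adjusted p = 0.00873) was 0.03 (adjusted p = 0.568) after median-ratio scaling.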

How the data were processed

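Gene levels in 30 libraries were deposited by the authors as TPM, made with kallisto and tximport per the series text. The submitters' processing notes give kallisto 0.43.1, FastQC and the build mm10. The listed genes sum to less than 1000000 TPM in each library, so some transcripts are not listed, and read depth is unknown. The labels give 6 DMSO libraries and the series text 5, and the labels were followed. Genes at 1 TPM or more in at least 3 libraries were kept (13644). Values were analysed as log2(TPM + 1) with limma 3.58.1 in R 4.3.3, in 1 fit over all 9 groups with an intensity trend and 21 residual degrees of freedom. Calls used a Benjamini-Hochberg adjusted p below 0.05 over all tested genes in each of 11 comparisons, 8 against DMSO and 3 direct. The pipeline was tested on simulated data. The 10 genes and the wider list were chosen with earlier results of these data known. For the wider list, the text names, for each compound, the 2 called genes with the largest difference whose treated libraries all lie outside the DMSO range. Genes named beyond that rule, namely further values of those genes and the families introduced as such, were chosen after their values were seen. Alternatives were other pseudocounts (0.1, 0.5), filters, scalings, a replicate block, a fit of the compound and DMSO only, and leaving out each library.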

Additional observations from a re-analysis of the deposited data

How the results depend on the processing

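Of 40 called differences of the 10 genes from DMSO, each recomputed under 19 alternatives (760 values), 706 values kept direction and call, 52 were no longer called and 2 changed sign. All called differences in Cardamonin and Podofilox kept both in all 19. Of the 40 differences not called, 39 of 760 values changed sign and 25 became called. Replicate numbers 4 to 6 occur only in DMSO, so with the replicate block a difference from DMSO rests on DMSO replicates 1 to 3. A change with the block therefore cannot be told apart from the loss of DMSO replicates 4 to 6. The number of the 10 genes called in Dihydrorotenone was 1 with the replicate block and 0 in the fit of the compound and DMSO only. In Diphenyleneiodonium Cl it was 4 with the replicate block, 1 in the fit of the compound and DMSO only, and 1 to 3 when a library was left out (1 without Diphenyleneiodonium Cl replicate 2 or 3 or DMSO replicate 5). In BerberineA it was 3 to 5 when a library was left out (5 without DMSO replicate 3). In Clofilium tosylate it was 1 without a filter, 1 after median-ratio scaling, 6 after quantile normalization, 1 in the fit of the compound and DMSO only, and 1 to 5 when a library was left out. Of the wider list, calls in Dihydrorotenone numbered 3 after median-ratio scaling, 3 in the fit of the compound and DMSO only and 3 to 7 when a library was left out, and in Diphenyleneiodonium Cl 7 to 13. Over all genes, Dihydrorotenone had 969 calls in the fit of the compound and DMSO only and 1233 to 2179 when a library was left out (1233 without Dihydrorotenone replicate 1, 1268 without 2), against 1963.

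Signs turned for small differences, and the cause was not tested. After median-ratio scaling these were Txnrd2 (0.0272) and Prdx3 (0.0269) in Dihydrorotenone, Prdx3 in BerberineA (-0.000218), Prdx2 (-0.0621) and Prdx3 (-0.118) in AEG 3482, Txn1 in Cardamonin minus AEG 3482 (0.0544) and Txnip in Podofilox minus Cardamonin (0.0014). After quantile normalization they were Txnrd2 (0.0532) and Prdx3 (0.0195) in Dihydrorotenone, Prdx2 (-0.0571) and Prdx3 (-0.138) in AEG 3482, Txn1 in Cardamonin minus AEG 3482 (0.0394) and Txnip in Podofilox minus Cardamonin (0.0167). After rescaling without the 20 most abundant genes they were Txnip in Dihydrorotenone (-3.43e-05), Prdx3 in AEG 3482 (-0.0413), Prdx2 in Podofilox (0.00469), Txn1 in Cardamonin minus AEG 3482 (0.0206) and Txnip in Podofilox minus Cardamonin (0.011). With the replicate block they were Txnip in Antimycin A (0.0551) and Txnrd2 in Dihydrorotenone (0.00012). With a library left out, ranges that span 0 were Txnrd1 (-0.00301 to 0.105) and Txnip (-0.0915 to 0.0597) in Antimycin A, and Txnrd2 (-0.14 to 0.0889), Prdx3 (-0.026 to 0.0235) and Txnip (-0.0502 to 0.079) in Dihydrorotenone. They were also Txn2 in Diphenyleneiodonium Cl (-0.0378 to 0.0228), Txnrd2 (-0.0094 to 0.182) and Txn2 (-0.0425 to 0.0181) in BerberineA, and Txnrd2 (-0.111 to 0.0145) and Prdx2 (-0.0368 to 0.0162) in Podofilox. Of the direct comparisons they were Txn1 in Cardamonin minus AEG 3482 (-0.038 to 0.0129), Txnip in Antimycin A minus Dihydrorotenone (-0.103 to 0.0483) and Txnip in Podofilox minus Cardamonin (-0.0989 to 0.00746). Correlations of deviations between libraries with the same replicate number were weak, from -0.107 to 0.151 over 108 pairs. Their median was 0.0071, against -0.000869 for libraries with other numbers. Of 27 libraries, 14 correlated best with their own number, and the count reached by chance was not worked out. Whether the numbers pair the libraries was not tested further. Because depth is unknown, no counting error could be given for the low Txnrd2.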
